A study of Mus musculus with 16 samples.

Results

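Ba/F3 cells carrying FOXO3(A3)-ER were profiled on 2-colour expression arrays 8 h after 4-hydroxytamoxifen (4-OHT) switched the fusion protein on. The 4 arrays whose treated channel is labelled Foxo3-8hr were taken, out of 16 arrays in the series. On every one of them the treated RNA competed with RNA from a pool of FOXO3 line cells harvested at 0 h. Replicates 1 and 3 carried the treated RNA in Cy3 and replicates 2 and 4 carried it in Cy5. The other 12 arrays held the FOXO3 line at 2 h and the FOXO4(A3)-ER line at 2 h and 8 h, each group with 4 arrays against its own line's pool.

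Ba/F3 is a mouse pro-B cell line that needs interleukin-3, which was in the medium of all groups, as was G418, the antibiotic that selects for the construct. Both lines were clonal, obtained by limiting dilution after electroporation, and the labels do not say whether the arrays of a fusion came from 1 clone or several. A fusion protein and the clone or clones that carry it cannot be told apart. All samples on both sides of a ratio carried the fusion gene. There were no cultures given 4-OHT without a fusion, and none kept for 8 h without 4-OHT, so the effects of the fusion, of 4-OHT and of 8 h in culture cannot be told apart. The pool is 1 control sample, and a ratio against it leaves out the spread among 0 h cultures.

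FOXO proteins are forkhead transcription factors that PKB, the kinase downstream of PI3K, phosphorylates and keeps out of the nucleus while growth factors are present. In the A3 form the PKB sites are changed to alanine, and the oestrogen receptor domain holds the fusion inactive until 4-OHT binds it. In cells that depend on cytokines, FOXO3 is known for stopping the cell cycle, for inducing death genes and for turning on catabolic programmes such as autophagy, and the series title names glutamine metabolism and autophagy as the study's subject.

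Each value below is the log2 ratio of treated RNA to the 0 h pool, given per array in the order of replicates 1 to 4, or as the fitted mean ± SE (limma, n = 4 arrays). The threshold for a call was 0.05 on the Benjamini-Hochberg adjusted p, over the 17484 genes tested. A gene is termed dim in a channel when its probe lay under the level that 95% of the signal-free external control spots stay below. Whether the replicates were separate cultures is stated only in the series design, which calls them independent, and p-values measure the spread between these arrays.

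At 8 h 2688 genes were called higher, 15.4% of those tested, and 2641 were called lower, 15.1%. The changes were uneven in size, since 241 genes (1.38%) rose by at least 1 on the log2 scale and 31 (0.177%) fell by as much. At a threshold of 2, 26 genes rose and 1 fell, and 3 genes rose by at least 3. The risers of at least 1 started from a median pool signal of 291 and 44 of them were dim in the pool on 4 of 4 arrays, whereas the 31 fallers had a median pool signal of 1180 and 0 were dim on all 4. A gene dim in the pool has little room to fall, so this contrast in pool signal cannot be read as a trait of the fallers. Of the genes bright in the pool on 4 of 4 arrays, 138 rose and 29 fell by at least 1. In the plot of ratio against signal the large rises spread over dim and bright genes.

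**Figure D1:**
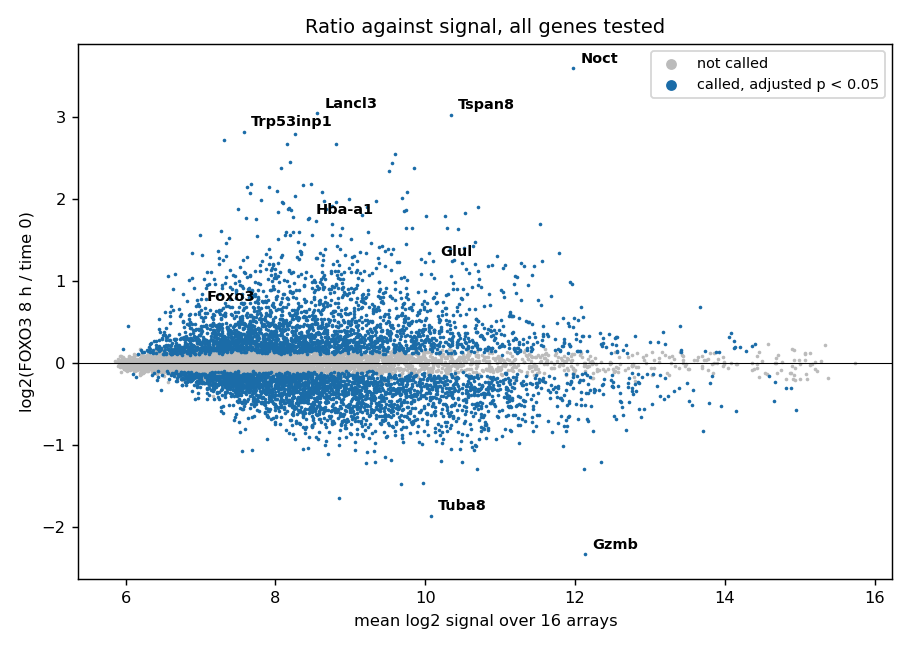
Fitted log2 ratio of FOXO3 8 h over time 0 (vertical axis) against the mean log2 signal over the 16 arrays (horizontal axis) for 17484 genes, with the 5329 called genes in blue. The 241 genes that rose by at least 1 outnumber the 31 that fell by as much.

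The 2 dye orientations had to be read together. Over all genes, log2 ratios correlated at 0.904 between replicates 1 and 3 and at 0.931 between replicates 2 and 4, which share an orientation, but at 0.283 to 0.41 between arrays of opposite orientation. Over the called genes of at least 1 in size all 6 pairs correlated at 0.929 to 0.985. These are correlations over genes that share the pool, given as a description. The SD over genes of the difference between orientations was 0.423, and the fit removes it gene by gene with a dye term. Of the 5329 called genes (30.5%), 4352 (24.9% of those tested) had the same sign on 4 of 4 arrays. With 2 arrays in each orientation the dye term bears on the error of a mean and thus on the call, not on its direction.

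**Figure D2:**
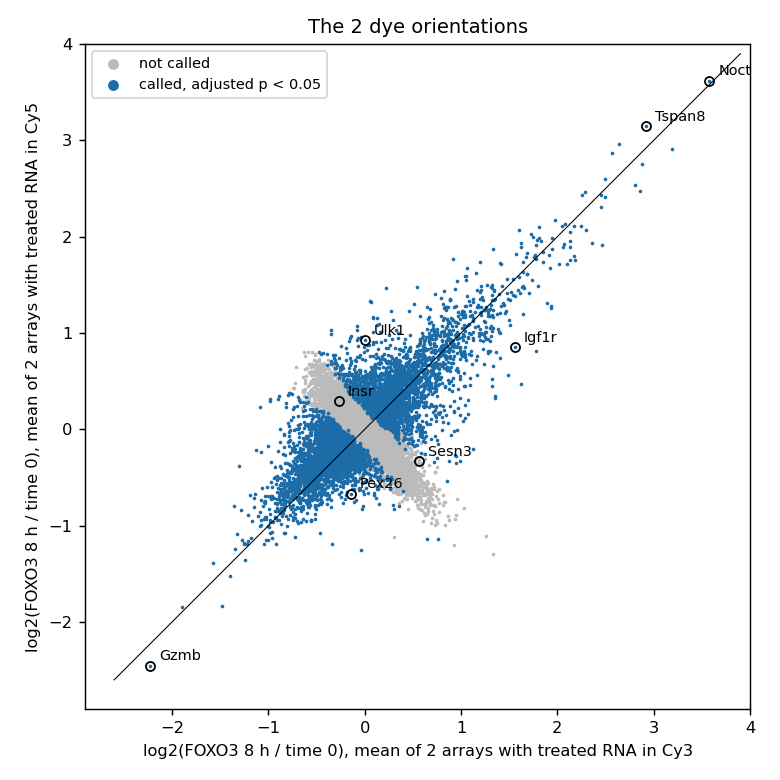
Mean log2 ratio of the 2 arrays with treated RNA in Cy5 (vertical axis) against that of the 2 arrays with treated RNA in Cy3 (horizontal axis), 1 point per gene, called genes in blue, with the line of equality. Noct, Tspan8 and Gzmb lie near the line, whereas Sesn3 and Insr change sign between orientations and are not called.

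Glul, which encodes glutamine synthetase, read 1.30, 1.30, 1.10 and 1.25, although a dimmer probe stood at 0.30. The autophagy genes Map1lc3b, which coats the autophagosome, and Sqstm1, a cargo receptor, rose by 1.65 ± 0.05 and 1.88 ± 0.06. The death gene Bcl2l11 rose by 0.91 ± 0.06. Each had 1 sign on 4 of 4 arrays. Bcl2l11 was dim in the pool on 4 of 4 arrays. A further Bcl2l11 probe of similar brightness (mean log2 signal 7.2 against 7.28) rose by 0.53.

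Other genes differed between the dye orientations. Ulk1, the kinase that starts autophagy, read 0.04, 0.83, -0.04 and 1.02 from a pool signal dim on 4 of 4 arrays. For Ulk1 both Cy5 arrays were high and both Cy3 arrays were near 0. Its mean of 0.46 ± 0.05 was called with the dye term (adjusted p = 3.75e-07) and not without it (adjusted p = 0.415). Sesn3, a sestrin and known FOXO target, read 0.62, -0.33, 0.52 and -0.33, with a mean of 0.12 ± 0.05 that was not called (adjusted p = 0.11). The insulin receptor gene Insr read -0.19, 0.24, -0.35 and 0.35, a mean of 0.01 ± 0.05 (adjusted p = 0.91). A further Insr probe was called at 0.12 (limma, adjusted p = 0.0212) and another stood at 0.001. Sesn3 and Insr were dim in the pool and in treated cells on 4 of 4 arrays, so a missing call does not show an unchanged transcript. Irs2 stood at 0.06 ± 0.04 (adjusted p = 0.38). Igf1r, a receptor that activates PI3K, was positive on all 4 arrays but higher in Cy3, at 1.56, 0.88, 1.56 and 0.83, a rise of 1.21 ± 0.05. Of 5 other Igf1r probes, 2 were called, at 0.73 and 0.42. Another, about as bright as the main probe (mean log2 signal 7.92 against 7.96), stood at 0.12 and was not called, so the probes of this gene disagree.

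The labelled cell type was set against its markers. Of 19 pro-B and B-lineage markers tested, 17 were dim in the pool on 4 of 4 arrays, among them Cd79a, Pax5, Ebf1, Vpreb1, Igll1, Rag1, Il7r and Kit, and Cd79b and Ptprc were bright. Of 16 mast cell and myeloid markers, Cpa3, a mast cell carboxypeptidase, gave a pool signal of 18000 to 50900, Gata2 was bright as well and 9 were dim on 4 of 4 arrays. A dim signal can come from a weak probe as well as from a low transcript. The summed signal of the B-lineage markers was 1502 to 1909 in the pool and 1340 to 3241 in treated cells, and that of the mast cell and myeloid markers was 21370 to 56020 and 20870 to 48930. Most of the mast cell and myeloid sum was Cpa3 alone, at 18000 to 50900 in the pool and 19000 to 43900 in treated cells. In the B-lineage list 1 gene rose and 0 fell (limma, also 1 and 0 at an unadjusted p under 0.05). The riser was Ptprc, the gene of the phosphatase CD45, at 1.25 ± 0.06, with 2 further probes at 1.18 and 0.79. In the mast cell list 0 rose and 1 fell (limma, 0 and 2 at an unadjusted p under 0.05), and the faller was Gata2, at -0.41 ± 0.05. Without replicate 3, or without replicate 4, 2 fell.

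Clone, RIKEN and predicted-gene names were left out when genes were ranked here and below. The 20 highest genes included a clock-controlled enzyme, membrane organisers, stress genes and growth suppressors. Noct, which encodes the clock-controlled phosphatase nocturnin, read 3.56, 3.53, 3.60 and 3.71. A dimmer Noct probe stood at -0.41 (adjusted p = 4.22e-07), so the probes of this gene disagree. Tspan8, a tetraspanin of the cell surface, read 2.94, 3.18, 2.90 and 3.11. Trp53inp1, a stress gene that p53 induces and whose protein takes part in autophagy, read 2.71, 2.75, 3.06 and 2.76 from a pool signal that was dim on 4 of 4 arrays. For each of these genes the lowest of the 4 arrays stood far above 0.

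Hbp1, a high-mobility-group repressor that slows entry into S phase, read 2.40, 2.01, 2.54 and 1.82, higher in both Cy3 arrays than in both Cy5 arrays. One further Hbp1 probe stood at 2.06 and a dimmer one at 0.06. Ypel3, a small nuclear protein known to suppress growth, read 1.99, 2.02, 2.16 and 2.25, with a mean of 2.10 ± 0.04. Sat1, the acetyltransferase that starts polyamine breakdown, rose by 2.44 ± 0.05, and a further probe rose by 2.12. Ccpg1, a receptor that directs the endoplasmic reticulum to autophagy, rose by 2.45 ± 0.06, whereas its dimmer probe stood at 0.04 and was not called. The surface and membrane genes of this group were Lgals3 (galectin-3, 2.72), Cav2 (caveolin-2, 2.67), Anxa1 (annexin A1, 2.35) and P2ry14 (a receptor for UDP sugars, 2.80). Erbb3, a receptor that feeds PI3K, rose by 2.14 ± 0.06 from a pool signal dim on 4 of 4 arrays, and its 2 further probes rose by 0.64 and 0.25. Cited2, a transcriptional co-regulator, was at 2.06, 2.39, 2.52 and 2.54, and Resf1, a silencing factor of retroelements, was at 2.46, 2.62, 2.53 and 2.57. The remaining genes of the 20 highest were Lancl3, Ube2h, Neurl3, Tcp11l2, Sft2d2 and Nme7, at 2.15 to 3.05. A positive ratio on 4 of 4 arrays was a condition for naming these 20. In the pool 6 of these 20 were dim on 4 of 4 arrays, among them Lgals3, P2ry14, Tcp11l2 and Nme7.

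**Figure D3:**
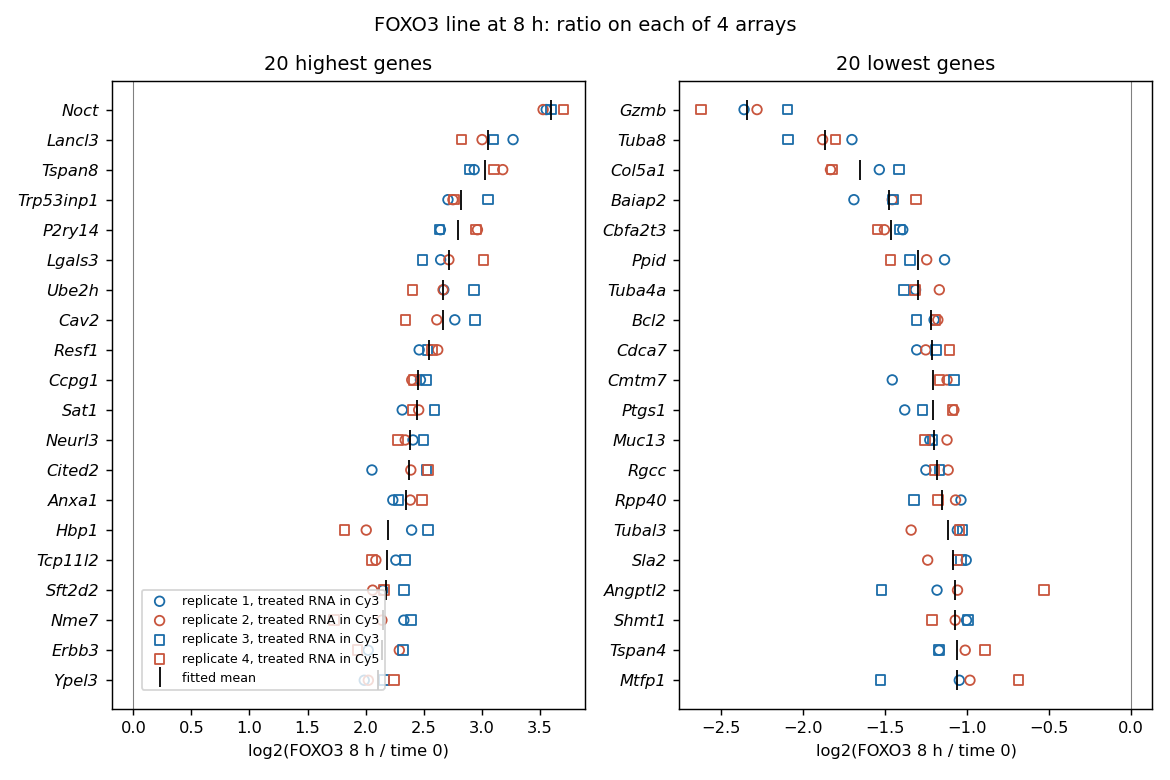
Log2 ratio of FOXO3 8 h over time 0 on each of the 4 arrays for the 20 highest and the 20 lowest named genes, with circles and squares for replicates, blue for treated RNA in Cy3, red for treated RNA in Cy5, and a bar for the fitted mean. All 20 highest genes lie above 0 and all 20 lowest below 0 on every array, as their selection required. Angptl2 and Mtfp1 spread widest among the lowest.

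Since these genes rose together, their promoters were searched for GTAAACA, the core of the site that FOXO factors are known to bind, on both strands. RefSeq promoters (GRCm38.p6, 250 bases before to 50 after the start) were found for 18 of the 20 highest genes, and 5 of the 18 (27.8%) held the motif. They were found for 19 of the 20 lowest genes, and 0 of the 19 held it. Among all genes with a listed promoter, 1095 of 27025 (4.05%) held it, and over the 13973 tested genes with a promoter 486 (3.48%) did. A gene with several listed starts was counted when any of them matched. A match is a description of these letters and not a measured site, and no match says only that the letters are not in this window. The 5 promoters with a match are shown 5′ to 3′ on the strand of the gene, with the motif or its reverse complement TGTTTAC in capitals.
Tspan8, chr10:115817034-115817333, plus strand: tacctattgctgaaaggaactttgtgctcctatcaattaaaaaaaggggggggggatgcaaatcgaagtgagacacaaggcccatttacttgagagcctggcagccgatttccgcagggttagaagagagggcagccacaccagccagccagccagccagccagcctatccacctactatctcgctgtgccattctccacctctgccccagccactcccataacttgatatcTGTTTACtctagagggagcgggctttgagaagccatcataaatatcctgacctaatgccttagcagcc
Ypel3, chr7:126776713-126777012, plus strand: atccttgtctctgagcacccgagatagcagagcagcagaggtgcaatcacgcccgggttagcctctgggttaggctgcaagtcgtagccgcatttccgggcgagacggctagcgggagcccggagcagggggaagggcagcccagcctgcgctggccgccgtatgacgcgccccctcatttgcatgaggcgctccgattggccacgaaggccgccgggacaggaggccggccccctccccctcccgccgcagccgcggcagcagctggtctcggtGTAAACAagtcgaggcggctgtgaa
Hbp1, chr12:31950196-31950495, minus strand: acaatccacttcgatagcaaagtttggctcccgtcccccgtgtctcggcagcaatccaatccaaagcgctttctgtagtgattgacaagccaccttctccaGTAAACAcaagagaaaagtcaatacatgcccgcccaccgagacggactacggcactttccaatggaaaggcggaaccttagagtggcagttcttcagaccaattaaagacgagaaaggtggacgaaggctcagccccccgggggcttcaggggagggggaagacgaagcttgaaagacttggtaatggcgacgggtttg
Ube2h, chr6:30243754-30244053, minus strand: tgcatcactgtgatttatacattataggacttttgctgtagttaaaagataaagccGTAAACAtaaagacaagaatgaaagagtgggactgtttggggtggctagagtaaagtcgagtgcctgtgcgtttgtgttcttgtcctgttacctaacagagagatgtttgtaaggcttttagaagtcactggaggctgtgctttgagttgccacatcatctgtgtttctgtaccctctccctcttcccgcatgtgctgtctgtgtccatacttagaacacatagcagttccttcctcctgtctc
P2ry14, chr3:59131069-59131368, minus strand: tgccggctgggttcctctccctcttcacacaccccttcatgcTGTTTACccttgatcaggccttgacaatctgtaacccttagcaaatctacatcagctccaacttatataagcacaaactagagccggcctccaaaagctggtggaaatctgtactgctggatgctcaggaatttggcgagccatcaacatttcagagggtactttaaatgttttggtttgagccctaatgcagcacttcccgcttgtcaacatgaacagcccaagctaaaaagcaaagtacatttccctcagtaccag

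The match lay 18 bases before the annotated start of Tspan8 (first base at -18), at 26 after that of Ypel3 and at -149 for Hbp1. Ube2h had 2 listed starts and only the one shown held the motif, at -194. P2ry14 had 4 listed starts, and the same copy of the motif fell inside 2 of the windows, at -208 in the one shown and at 3 in the other. These 5 genes were not the 5 highest: their fitted ratios ran from 2.10 to 3.03.

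Of the 20 named genes that fell most, 18 were bright in the pool on 4 of 4 arrays, against 5342 of the 17484 tested. A gene dim in the pool has little room to fall, so this describes the choice of genes. Gzmb, which encodes the granule protease granzyme B, read -2.36, -2.28, -2.09 and -2.62 from a pool signal of 6285 to 13670. Tuba8, an alpha-tubulin, read -1.70, -1.88, -2.09 and -1.80, and 2 relatives fell with it, Tuba4a by 1.30 ± 0.04 and Tubal3 by 1.12 ± 0.05. Bcl2, the survival gene, read -1.20, -1.18, -1.31 and -1.19. The groups of 4 values were narrow against the size of each fall. Cbfa2t3, a corepressor of blood cell factors, fell by 1.46 ± 0.05, Cdca7, a chromatin gene of S phase, by 1.21 ± 0.05, and Rpp40, a subunit of RNase P, by 1.15 ± 0.08. Shmt1, which loads one-carbon units onto folate for thymidylate synthesis, read -1.003, -1.07, -0.995 and -1.21. Ptgs1 (cyclooxygenase-1, -1.20), Muc13 (a membrane mucin, -1.20), Rgcc (a cell cycle regulator, -1.18), Cmtm7 (-1.21), Ppid (a cyclophilin, -1.30), Sla2 (an adaptor, -1.09) and Tspan4 (-1.06) were further members. The call of Col5a1 (-1.65) was repeated by 2 of 6 other probes, that of Baiap2 (-1.48) by 0 of 1 and that of Angptl2 (-1.07) by 0 of 1. Angptl2 and Mtfp1, a mitochondrial fission gene, were dim in treated cells on 4 of 4 arrays, so their falls of 1.07 and 1.06 end at the control level.

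Probes of one gene did not always give one answer. The brightest further probe of each gene was compared. Among the 1549 called genes with a further probe, it was called in the same direction for 739 (47.7%) and in the opposite direction for 38. Where that further probe was at least as bright as the median probe these were 634 of 1026 (61.8%) and 34. Hence a gene named from 1 bright probe is a statement about that probe.

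Several lists of growth and biosynthesis genes held more lower than higher calls. Each list is described by counts beside the 15.4% higher and 15.1% lower over all genes and a median of -0.002. Those shares are a low comparator for bright genes. Of 5342 genes bright in the pool on 4 of 4 arrays, 1453 were called higher and 1889 lower. Such genes made up 25 of 30 in purine and pyrimidine synthesis, 61 of 69 mitochondrial ribosomal proteins and 40 of 50 in nuclear transport. They also made up 43 of 47 translation factors and 13 of 13 CCT and prefoldin genes. Of 30 genes of purine and pyrimidine synthesis, 3 rose and 23 fell, with a median of -0.39. Rrm2, the small subunit of ribonucleotide reductase, read -0.95, -1.08, -1.02 and -1.07. Gart, a multifunctional enzyme of purine synthesis, fell by 0.97 ± 0.05, although its 2 dimmer probes stood at -0.02 and 0.01. Ctps2, a CTP synthase, rose by 0.91 ± 0.05 in the same list. The counts of this list under 3 other scalings of the arrays were 3 higher and 22 lower each time.

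Of 69 mitochondrial ribosomal protein genes 5 rose and 43 fell (median -0.22). The 5 became 3 without replicate 2 or without replicate 4, and 1 under centring on the 1 external control type with a detectable signal, which was chosen after seeing the data. Mrpl12, a protein of the large subunit, read -0.89, -0.75, -0.88 and -0.76, and Mrpl15 fell by 0.80 ± 0.06, Mrps26 by 0.67 ± 0.05 and Mrps35 by 0.66 ± 0.04. Of 50 genes of the nuclear pore and of nuclear transport 2 rose and 32 fell (median -0.30), led by the pore gene Nup43 (-0.79 ± 0.05), the exportin Xpo5, which carries pre-miRNAs (-0.75 ± 0.04), and Rcc1, the exchange factor of Ran (-0.68 ± 0.05). The importin gene Kpna3 was an exception, at 0.59 ± 0.04, and the 2 rises became 1 without replicate 2 or under that centring. Of 47 translation initiation and elongation factors 0 rose and 20 fell (limma, 2 and 22 at an unadjusted p under 0.05), with a median of -0.09, and without replicate 4 1 rose. Eif4e, which binds the mRNA cap, read -0.72, -0.65, -1.27 and -1.004, and the subunits Eif2b4 and Eif2b3 of the exchange factor of eIF2 fell by 0.58 ± 0.05 and 0.43 ± 0.03. Of 13 genes of the chaperonin CCT and of prefoldin, which fold tubulin and actin, 3 rose and 6 fell (median -0.15). Cct3 fell by 0.47 ± 0.05 and Cct6a by 0.39 ± 0.04, whereas the prefoldin subunit genes Vbp1 and Pfdn5 rose by 1.07 ± 0.08 and 0.51 ± 0.05.

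Of 58 splicing genes 8 rose and 34 fell (median -0.22). The 8 became 5 without replicate 4 or under median centring, and 3 under the control-type centring or without the dye term. Prpf31, a protein of the tri-snRNP, fell by 0.75 ± 0.04 and U2af1, which reads the 3′ splice site, by 0.65 ± 0.05. Clk1, a kinase that phosphorylates SR proteins, read 1.74, 1.77, 1.97 and 1.70, against its list. The SR protein gene Srsf6 read -0.68, -0.74, -0.69 and -0.72. The 4 arrays of Srsf6 hardly differed from one another, whatever the dye.

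Cell cycle genes were divided. Of 31 CDK inhibitors, cyclins, Rb family and E2F genes 8 rose and 13 fell, with a median of -0.01 that was positive (0.04) under centring on all external control spots. Rb1, the retinoblastoma gene that holds E2F in check, read 1.12, 1.05, 1.27 and 1.04. The inhibitor gene Cdkn1b rose by 0.51 ± 0.06, but was dim in the pool on 4 of 4 arrays and in treated cells on 2. The cyclin genes Ccne1 and Ccnd2, which drive the cycle, fell by 0.69 ± 0.05 and 0.67 ± 0.06. E2f8, an atypical E2F that represses E2F targets, fell by 0.52 ± 0.05. Of 31 genes of homologous recombination and the Fanconi pathway 3 rose and 20 fell (median -0.20), with Rad51ap1 at -0.77 ± 0.04, Exo1 at -0.73 ± 0.06, Ube2t at -0.46 ± 0.04 and Fance at -0.43 ± 0.05. Fewer cells in a phase of the cycle and less transcript per cell cannot be told apart in these bulk samples. Of 18 tubulin genes 2 rose (1 without replicate 2 or without replicate 4) and 9 fell (median -0.13), and beside the members named above Tubb6 fell by 0.64 ± 0.06 and Tubb4b by 0.51 ± 0.06. Tubulins are close paralogs, so their probes may read one another.

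Protein turnover did not move as one group. Of 30 ubiquitin-conjugating enzyme genes 13 rose and 6 fell, with a median of 0.12. Ube2h read 2.67, 2.67, 2.93 and 2.40, Ube2j1, an enzyme of the endoplasmic reticulum, rose by 1.41 ± 0.04, Ube2r2 by 0.83 ± 0.05 and Ube2d3 by 0.68 ± 0.05. Of 42 proteasome genes, all 42 bright in the pool on 4 of 4 arrays, 6 rose and 17 fell (median -0.08). Inducible catalytic subunit genes of the immunoproteasome fell, with Psmb10 at -0.69, -0.65, -0.70 and -0.67 and Psmb8 at -0.85, -0.45, -0.57 and -0.47. Psmb9, named after its values were seen as the remaining such subunit, fell by 0.48 ± 0.04. The assembly chaperone gene Psmg1 fell by 0.87 ± 0.05 and the activator gene Psme4 rose by 0.92 ± 0.07. Of 40 Rab GTPases, which direct vesicles, 18 rose and 2 fell (median 0.13). Rab11a of recycling endosomes read 0.88, 1.03, 0.81 and 1.07, and Rab5a of early endosomes, Rab18 and Rab13 rose by 0.73 ± 0.06, 0.71 ± 0.05 and 0.68 ± 0.05. The control-type centring lowered the rises to 9 Rab genes and 7 ubiquitin-conjugating enzymes.

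Mitochondrial energy genes moved little. Of 70 genes of the respiratory chain and ATP synthase 21 rose and 9 fell with a median of 0.07, but 4 rose and 7 fell with a median of -0.00 under that control centring, so the list has no settled direction. Ndufs4, a subunit of complex I, read 0.36, 0.74, 0.47 and 0.79, and Uqcrh of complex III read 0.10, 0.41, 0.24 and 0.45, both higher on the Cy5 arrays. Of 16 genes of the tricarboxylic acid cycle 3 rose and 5 fell. The counts were 0 and 5 under median centring, 0 and 4 under the control-type centring and 3 and 3 under centring on all external control spots, and the 5 became 3 without replicate 1, 2 or 4. No named member moved by more than 0.27, the values of Fh1 (-0.27 ± 0.04) and Dlat (0.27 ± 0.05). Of 25 peroxisome genes 4 rose and 3 fell (3 and 4 under the control-type centring). Cat, the catalase gene, rose by 0.81 ± 0.04 and Hsd17b4, an enzyme of peroxisomal beta-oxidation, by 0.74 ± 0.05. Pex26, a peroxisome import gene, read -0.20, -0.70, -0.08 and -0.64 and lost its call without the dye term (adjusted p = 0.0553).

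Genes of cytokine and PI3K signalling included large rises. Of 29 genes of the interleukin-3 receptor, JAK, STAT and SOCS families 13 rose and 5 fell (median 0.11). Jak2, the kinase bound to the interleukin-3 receptor, read 1.03, 1.33, 1.36 and 1.39. Jak1 rose by 0.97 ± 0.04, Stat5b by 0.70 ± 0.05 and the feedback inhibitor Socs2 by 1.18 ± 0.06, with a dimmer Socs2 probe at 0.07 that was not called. Of 45 brakes and receptors of PI3K, PKB and mTOR 12 rose and 8 fell, and the list median of 0.00 took either sign under other scalings. Beside Erbb3 and Igf1r, which feed the pathway, the inhibitors Sesn1 and Pik3ip1 rose by 1.80 ± 0.07 and 1.37 ± 0.05. Pik3ip1 was dim in the pool on 4 of 4 arrays. The rises in this list thus stood on both sides of the pathway.

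Transcription factor and chromatin lists were mixed. Of 15 Krueppel-like factors 5 rose and 3 fell, and 3 rose without replicate 4 and 2 under the control-type centring. Klf6 read 1.93, 2.11, 2.01 and 2.23 from a pool signal dim on 4 of 4 arrays. Klf1, the erythroid factor, read -0.87, -0.69, -1.16 and -0.50 and was dim in treated cells on 4 of 4 arrays. Of 39 haematopoietic transcription factors 4 rose and 12 fell (median -0.07). Myb, a factor of blood progenitors, fell by 0.88 ± 0.06 and Ets2 by 0.77 ± 0.04, while Tcf12, an E protein, rose by 0.90 ± 0.05. Of 42 histone modifiers 11 rose and 8 fell, but 8 rose and 8 fell under centring on the 1 external control type with a signal. The acetyltransferase gene Kat2b read 1.08, 1.47, 1.34 and 1.42, the demethylase genes Kdm6a and Kdm5a rose by 0.87 ± 0.06 and 0.60 ± 0.04, and Jmjd6 fell by 0.66 ± 0.04. Of 30 p53 targets 11 rose and 8 fell, again 8 and 8 under that centring. Gadd45a read 2.04, 2.12, 2.23 and 1.40 from a pool signal dim on 4 of 4 arrays. Aen, a nuclease gene that p53 induces, fell by 0.84 ± 0.04. Of 20 clock genes 4 rose and 3 fell. Beside Noct, Clock rose by 0.57 ± 0.05 from a pool signal dim on 4 of 4 arrays. A dimmer Clock probe at -0.07 was not called. Arntl, the partner of Clock, fell by 0.40 ± 0.06.

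Tetraspanins and granule proteases had 21.4% and 26.9% of their members called, below the background of 30.5%. However, 12 of 28 tetraspanins and 16 of 26 granule genes were dim in the pool on 4 of 4 arrays. Of all 9262 genes that dim, 882 were called, so the lower shares cannot be read as quiet families. Of 28 tetraspanins 2 rose and 4 fell, but the 2 were Tspan8 and the leukocyte gene Cd53, which read 1.67, 1.72, 1.63 and 1.76. Of 26 granule protease and mast cell granule genes 3 rose and 4 fell, and the 3 became 1 without replicate 1, under median or control-type centring, or without the dye term. Ctsc, the protease that activates granzymes, rose by 0.89 ± 0.06, against the falls of Gzmb, Prtn3 (-0.61 ± 0.04) and Gzmc (-0.32 ± 0.05). Prtn3 was dim in treated cells on 4 of 4 arrays and in the pool on 3, so its fall ends at the control level.

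**Figure D4:**
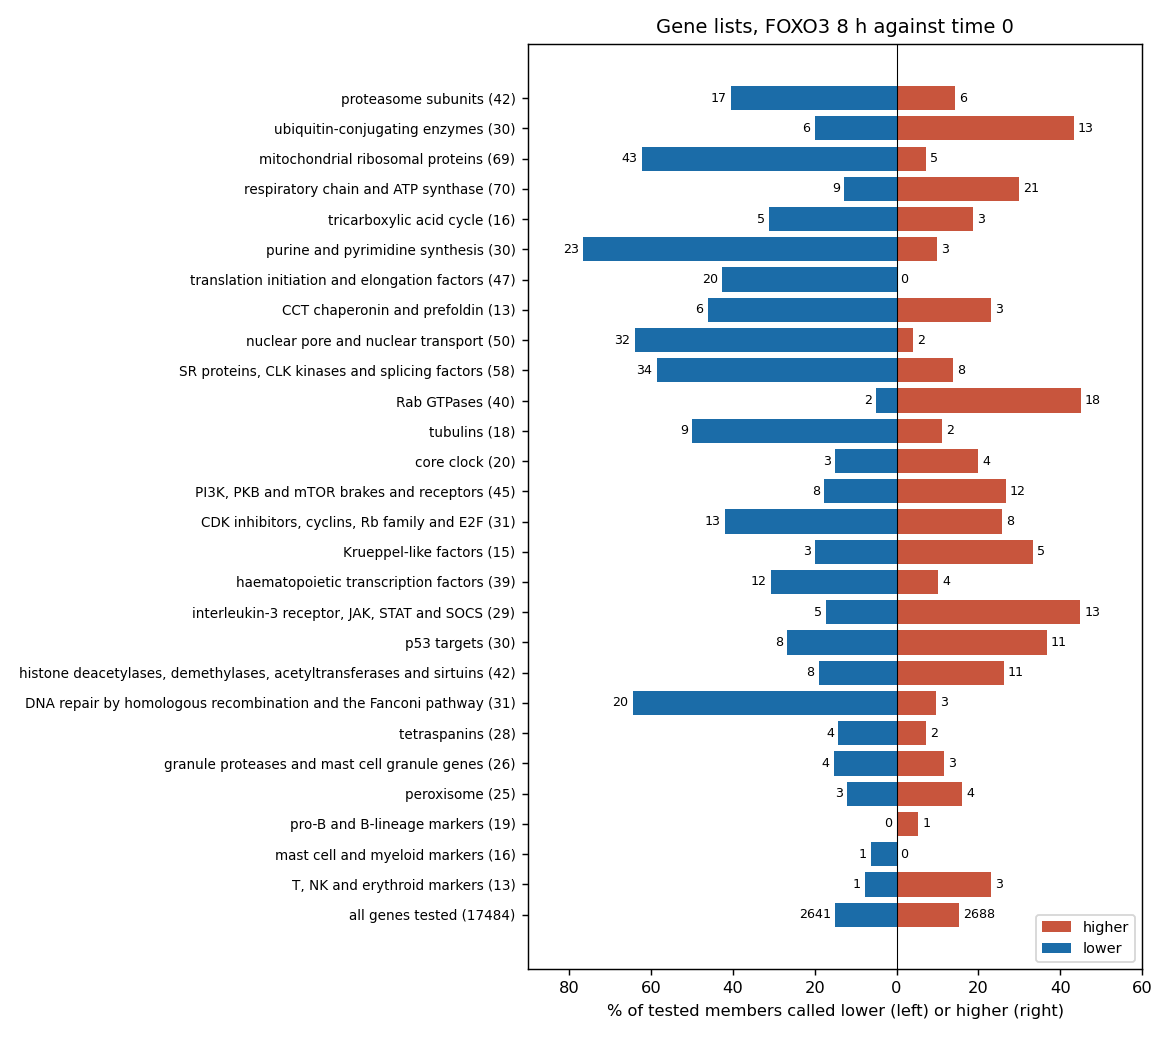
Share of the tested members of each gene list called lower (blue, left) or higher (red, right) at 8 h against time 0, in % of the tested members, which are given in brackets, with the number of genes at the end of each bar. All 17484 genes are at the bottom, and the bars of purine and pyrimidine synthesis (23 of 30), homologous recombination and the Fanconi pathway (20 of 31), nuclear transport (32 of 50) and mitochondrial ribosomal proteins (43 of 69) extend far to the left.

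The change between 2 h and 8 h was tested within the FOXO3 line. Both times were measured against the same pool, whose own level cancels in the difference. At 8 h 2058 genes were higher than at 2 h (11.8%) and 1746 were lower (9.99%), and for 2546 genes (14.6%) the 4 arrays of 8 h did not overlap those of 2 h. The widest gap was at Ube2h, which read 0.23, 0.34, -0.01 and 0.23 at 2 h and stood 2.47 ± 0.10 higher at 8 h. Trp53inp1, Tcp11l2, Tspan8 and Noct were higher by 2.36, 2.18, 2.14 and 2.14. Gzmb read -0.24, -0.23, 0.05 and -0.41 at 2 h and stood 2.13 ± 0.09 lower at 8 h, and Tuba8, Baiap2 and Tuba4a were lower by 1.66, 1.31 and 1.19 on the same scale. Srsf6 turned around: it read 0.35, 0.49, 0.72 and 0.64 at 2 h, where it was called higher (adjusted p = 5.67e-07), and was called lower at 8 h.

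Some genes already stood near their 8 h level at 2 h, when 1364 genes were called against time 0 (7.8%), 606 higher (3.47%) and 758 lower (4.34%). Clk1 stood at 1.56 at 2 h and 1.80 at 8 h, a difference of 0.24 ± 0.10 that was not called (adjusted p = 0.12). Myb differed by 0.00 ± 0.09 (adjusted p = 0.999), Klf1 by -0.04 ± 0.08 (adjusted p = 0.86), Gata2 by 0.07 ± 0.07 (adjusted p = 0.67) and the hexokinase gene Hk2 by -0.12 ± 0.06 (adjusted p = 0.23). These 5 genes were called against time 0 at both times. Klf1 was dim in treated cells on 4 of 4 arrays at 8 h, so a further fall after 2 h could be hidden. By list, 20 of 30 genes of purine and pyrimidine synthesis, 30 of 69 mitochondrial ribosomal protein genes and 25 of 50 nuclear transport genes were lower at 8 h than at 2 h.

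The FOXO4 line at 8 h, measured against its own pool, had 3227 called genes (18.5%), 1697 higher (9.71%) and 1530 lower (8.75%). Of them 2886 were called in the same direction in the FOXO3 line, which is 89.4% of the FOXO4 calls and 54.2% of the FOXO3 calls, and 13 were called in opposite directions. The direct test of the difference between the responses called 939 genes higher in the FOXO3 line (5.37%) and 923 lower (5.28%), and for 1594 genes (9.12%) the arrays of the lines did not overlap. Of the 241 genes that rose by at least 1 with FOXO3, 212 rose more there than with FOXO4 and 1 rose less. Of the 31 that fell by at least 1, 20 fell further and 0 fell less. Both sets were chosen for their size on the FOXO3 arrays, so the counts describe them and test nothing.

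The largest differences were at the alpha-globin genes. Hba-a1 read 1.77, 1.86, 1.47 and 1.93 with FOXO3 and 0.30, 0.44, 0.02 and 0.59 with FOXO4, a difference of 1.42 ± 0.08 (adjusted p = 5.43e-09). Hba-a2 differed by 1.43 ± 0.08, and since both genes encode nearly the same transcript their probes may read one another. At 2 h in the FOXO3 line they stood at -0.05 and -0.01 and were not called. Of 13 T, NK and erythroid markers 3 rose (Hba-a1, Cd3e at 0.41 and Tfrc at 0.23) and 1 fell (Klf1). Their summed signal was 2136 to 2719 in the pool and 1984 to 5334 in treated cells, and the erythroid enzyme gene Alas2 was dim on 4 of 4 arrays. The part of cells of another type in the globin rise was not tested.

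Ypel3 read 0.69, 0.81, 0.56 and 0.85 with FOXO4 and stood 1.38 ± 0.06 higher with FOXO3. Erbb3 and Ccpg1 were higher by 1.30 ± 0.08 and 1.25 ± 0.08. In all 3 the 4 arrays of one line lay apart from the 4 of the other, which was a condition for naming them here. Hk2, the first enzyme of glucose use, read -0.967, -0.996, -0.998 and -0.887 with FOXO3 and -0.10, -0.13, -0.03 and -0.01 with FOXO4, where it was not called, a difference of -0.90 ± 0.06 (adjusted p = 4.19e-08). Dut, which clears dUTP and makes dUMP, read -0.86, -0.66, -0.58 and -0.69 with FOXO3 and was not called with FOXO4 (-0.01), a difference of -0.69 ± 0.07. Pbp2 was at -0.88 and -0.14, Cdca7 at -1.21 and -0.38, and Cnpy4 rose in both lines but less with FOXO3 (0.40 against 1.09). Stat5b stood at 0.70 with FOXO3 and at 0.11, not called, with FOXO4, and the difference of 0.60 ± 0.07 was called (adjusted p = 2.73e-05). For Gzmb the difference of -0.22 ± 0.09 was not called (adjusted p = 0.16), and for Baiap2 it was -0.07 ± 0.08 (adjusted p = 0.79).

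**Figure D5:**
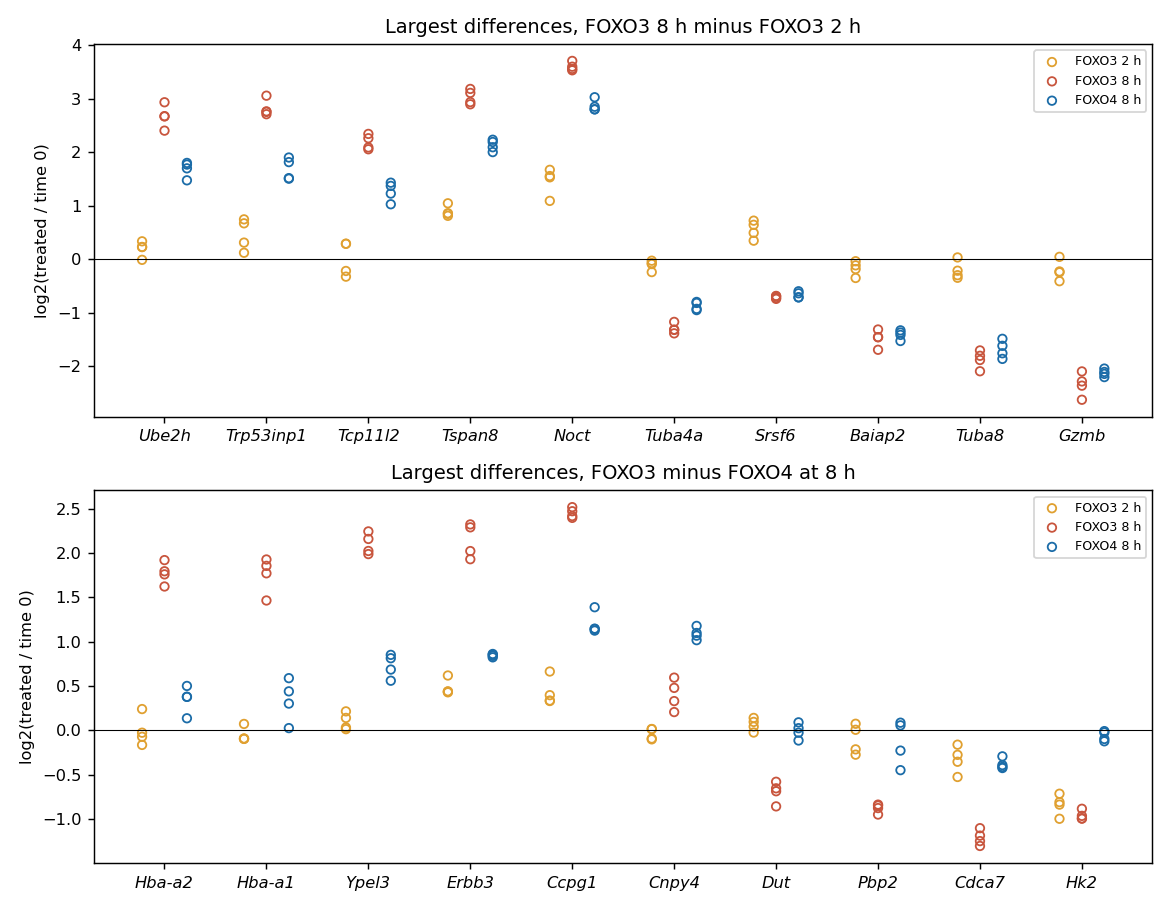
Log2 ratio of treated RNA to that line's own 0 h pool on each array for the 10 named genes of the difference between FOXO3 8 h and 2 h (top) and the 10 of the difference between FOXO3 and FOXO4 at 8 h (bottom), with 4 circles per group (yellow FOXO3 2 h, red FOXO3 8 h, blue FOXO4 8 h). Srsf6 lies above 0 at 2 h and below it at 8 h, and Hk2 is low at both FOXO3 times and near 0 with FOXO4.

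The Foxo3 transcript read 0.48, 0.76, 0.78 and 0.74 in the FOXO3 line at 8 h, with replicate 1 below the other 3, a mean of 0.69 ± 0.04. It was dim in the pool on 4 of 4 arrays. It stood at 0.04 at 2 h and at 0.03 in the FOXO4 line at 8 h, where it was not called, and whether its probe reads the fusion gene is not known here.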

How the data were processed

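Per the labels, RNA of each culture was amplified, labelled through aminoallyl coupling and hybridised to 2-colour arrays with the line's 0 h pool. Per the file headers, the authors deposited scanner intensity values per spot with local background, and normalized intensities. The deposited log2 values equal the log2 ratio of treated over time 0 computed from those normalized intensities (largest gap 5e-06), so scale and direction are known. Their medians per array ran from -0.0124 to 0.0108, and how the authors normalized and centred them is not stated here. On 16 of 16 arrays channel 1 was Cy5.

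Scanner intensities were corrected with normexp (offset 50) and normalized within arrays by loess, with control spots at weight 0 (limma 3.58.1, R 4.3.3). Each array had 34992 spots and 31769 gene probes. Probes passed when either channel exceeded its local background by 2 background SDs on at least 4 arrays, and 942 did not. One symbol was given for 26000 gene probes and none for 5769. Of 17888 symbols, 1981 were updated to the RefSeq table of GRCm38.p6. The brightest probe stood for a gene. The median spot signal of the 4 arrays was 98.2 to 169 in treated and 116 to 157 in pool RNA, 96.5% to 97.2% of gene probes lay above background, and saturation touched at most 12 spots per array. Precision is set by how many arrays there are and by each gene's spread between arrays, with a median SE of 0.0501.

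All 16 arrays entered 1 limma fit (lmFit, eBayes) with 4 group means and a dye term per gene, which was tested on simulated data. Comparisons were 8 h against 0 h, 8 h against 2 h, and FOXO3 against FOXO4 at 8 h, with Benjamini-Hochberg adjustment over 17484 genes. Gene lists carry counts and medians and no set test. Alternatives covered background, normalization, dye term, filter, probes, arrays in the fit, a replicate block and leaving out arrays. Named genes were the 20 highest and 20 lowest called genes of 1 sign on 4 of 4 arrays, 5 and 5 called genes without overlap for each other comparison, up to 4 called members of smallest adjusted p per list, and 10 fixed genes. Clone, RIKEN and predicted-gene names were left out of the highest and lowest genes of each comparison. The arrays, genes and lists were chosen with earlier results of these data known, so none is independent support. Promoters are from RefSeq (GRCm38.p6), and the array's own build was not used.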

Additional observations from a re-analysis of the deposited data

Results flagged for a closer look

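With FOXO3 at 8 h, 1 of the 4 arrays lay far from the other 3 for 7 of the 144 named genes, a rate near the 1 in 20 groups that such a check marks by chance. Replicate 3 stood apart for Trp53inp1 at 3.06 and for the prefoldin gene Vbp1 at 1.23. Replicate 2 stood apart for Tubal3 at -1.34, Eif2s2 at -0.48 and Gata2 at -0.50. Replicate 1 stood apart for Foxo3 at 0.48 and Gzmc at -0.18. All 7 genes kept their call when any 1 of the 4 arrays was left out.

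The tested difference between times called 3804 genes in the FOXO3 line. The largest were Ube2h (2.47), Trp53inp1 (2.36), Tcp11l2 (2.18), Tspan8 (2.14) and Noct (2.14), higher at 8 h, and Gzmb (-2.13), Tuba8 (-1.66), Baiap2 (-1.31), Srsf6 (-1.26) and Tuba4a (-1.19), lower at 8 h.

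The tested difference between the FOXO3 and FOXO4 responses at 8 h called 1862 genes. It was widest at Hba-a2 (1.43), Hba-a1 (1.42), Ypel3 (1.38), Erbb3 (1.30) and Ccpg1 (1.25) on the side of FOXO3, and at Hk2 (-0.90), Cdca7 (-0.83), Pbp2 (-0.75), Dut (-0.69) and Cnpy4 (-0.69) on the other. Line, clone and pool change together in this comparison and cannot be told apart.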

How the results depend on the processing

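Of 141 called named genes, 136 kept call and direction in every setting tried and 0 changed direction. Ulk1, Klf7 and Pex26 lost the call without the dye term (adjusted p = 0.415, 0.109 and 0.0553), Dlat under median centring (0.052), and Dlat and Tfrc under centring on the 1 external control type with a signal (0.103 and 0.212), a setting chosen after seeing the data. Sesn3 gained a call under 3 settings (adjusted p = 0.0298 to 0.0461). Of 972 list counts under alternatives 80 moved by over 1.5 times.

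Without the dye term 3392 genes were called at 8 h against 0 h (all 3392 also called with it), 2037 between 8 h and 2 h and 557 between FOXO3 and FOXO4. Centring on that 1 control type gave 4086, 2233 and 612, with 37.5% of the 8 h calls higher (1534 against 2552 lower) in place of 50.4%, and shifted the median of all genes to -0.069. Centring on all external control spots, most of which gave no signal, gave 3320 higher and 2078 lower (61.5% higher) and a median of 0.045. The balance of higher and lower genes thus depends on the scaling. Median centring gave 545 higher and 932 lower genes between FOXO3 and FOXO4 (36.9% higher). The cause was not tested. Leaving out 1 array gave 4738 to 4939 genes for 8 h against 0 h, 3414 to 3648 for 8 h against 2 h and 1429 to 1598 for FOXO3 against FOXO4.

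No shared deviation by replicate number was seen: residuals of same-numbered FOXO3 arrays correlated at -0.39 to 0.168. With so few arrays this cannot show that the cultures were unpaired. With a replicate block as a random effect 5326, 3864 and 1853 genes were called, and with a fixed replicate block 3429 between 8 h and 2 h. Signal limits the dim genes: 9262 of 17484 genes were dim in the pool on all 4 arrays.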
